A study of Hipposideros armiger with 2 samples.

Results

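Cytochrome P450 transcripts were described in 2 RNA-sequencing libraries labelled as liver of the great Himalayan leaf-nosed bat (Hipposideros armiger). The members were all assembled genes whose best Swiss-Prot protein match has a CYP symbol and a description of a cytochrome P450, hydroxylase, monooxygenase, demethylase or synthase, together with the P450 reductase POR. The rule took 82 P450 assembled genes and 4 POR assembled genes, 86 of 55378 in all. They carry 47 distinct P450 names and POR, which is 48 of 12783 distinct names. The P450 names fall into 11 families and 26 subfamilies. The rule itself uses no measured value, but the members and the lists below were chosen with earlier results of these data known.

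Cytochromes P450 are heme enzymes that insert an oxygen atom into a substrate. Those of the endoplasmic reticulum receive electrons from NADPH through POR, in some reactions helped by cytochrome b5, and the mitochondrial ones receive them from ferredoxin. In the liver, members of families 1, 2 and 3 oxidise drugs and other foreign chemicals, family 4 mainly oxidises fatty acids, and families 7, 8, 27, 39 and 46 oxidise cholesterol and bile acid precursors. Several forms of subfamilies 2A, 2B, 2F, 2S and 4B are known from airway and lung epithelium of mammals.

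Both libraries belong to 1 group, bats of the CW cave labelled as wild type (WT) and as exposed to heavy metals. The label of replicate 2 adds that the animal was male and adult, and the study's design text describes male adults for both of its caves. The study asked about liver function under heavy metal exposure. Animals of the YD cave were not analysed here, so the values describe the CW libraries and the difference between them, and nothing in them separates exposed from unexposed bats. The labels do not say in so many words that the libraries came from separate animals. With 1 library against 1 library no test between them is possible, and no p-value is given.

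The libraries held 18741210 and 18778331 expected counts, which are estimated read numbers. The liver label was compared with marker lists. All 15 hepatocyte markers were found, with summed levels of 15481 TPM (a level per transcript length, as a share of the library) in replicate 1 and 440.5 in replicate 2. By counts, all 15 were over 2-fold lower in replicate 2, beside 5.16% of all names tested, with log2 ratios from -5.73 to -1.51. All 12 lung and airway epithelium markers were found too, at 12438 and 19787 TPM. The 11 of these that were tested had log2 ratios from 0.10 to 0.24, with 0 past 2-fold in either direction. No marker of either list was at 0 in either library. The hepatocyte sum was 1.24 times the lung sum in replicate 1 and 0.0223 times in replicate 2, so lung and airway transcripts were abundant in both libraries labelled liver and exceeded hepatocyte ones in replicate 2. For steroid-producing glands, 0 of 5 markers were found among the names. Hepatocyte markers move with many of the results that follow, and their part in those results was not tested. In bulk tissue, fewer cells of a type and less RNA per cell cannot be told apart.

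P450 transcripts took a similar part of both libraries, although which P450 they were differed. Over the 47 names the sum was 2000 TPM for replicate 1 and 1844 for replicate 2 (mean 1922 ± 110 TPM, SD, n = 2). That is 0.201% and 0.185% of each library's TPM. By expected counts the share was 0.346% for replicate 1 (0.343 to 0.348%, Wilson 95% interval) and 0.355% for replicate 2 (0.352 to 0.357%). Intervals here and below cover counting error only, since no molecular identifiers separate PCR copies from molecules.

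POR, the electron donor of the microsomal P450s, was at 57.1 and 50.6 TPM (53.9 ± 4.6, SD, n = 2). Its 2348 and 2253 counts gave a scaled ratio of 0.800 (95% interval 0.755 to 0.848) and a log2 ratio of -0.32, within 2-fold. The P450 sum was 35.02 times the POR level in replicate 1 and 36.44 times in replicate 2.

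CYP2A5, CYP4B1 and CYP2B11 were the most abundant P450 names by TPM in both libraries. Together they gave 1080 of the P450 TPM in replicate 1, or 54.0%, and 1529 in replicate 2, or 82.9%. The remaining names therefore held a much smaller part of the P450 total in replicate 2.

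**Figure D1:**
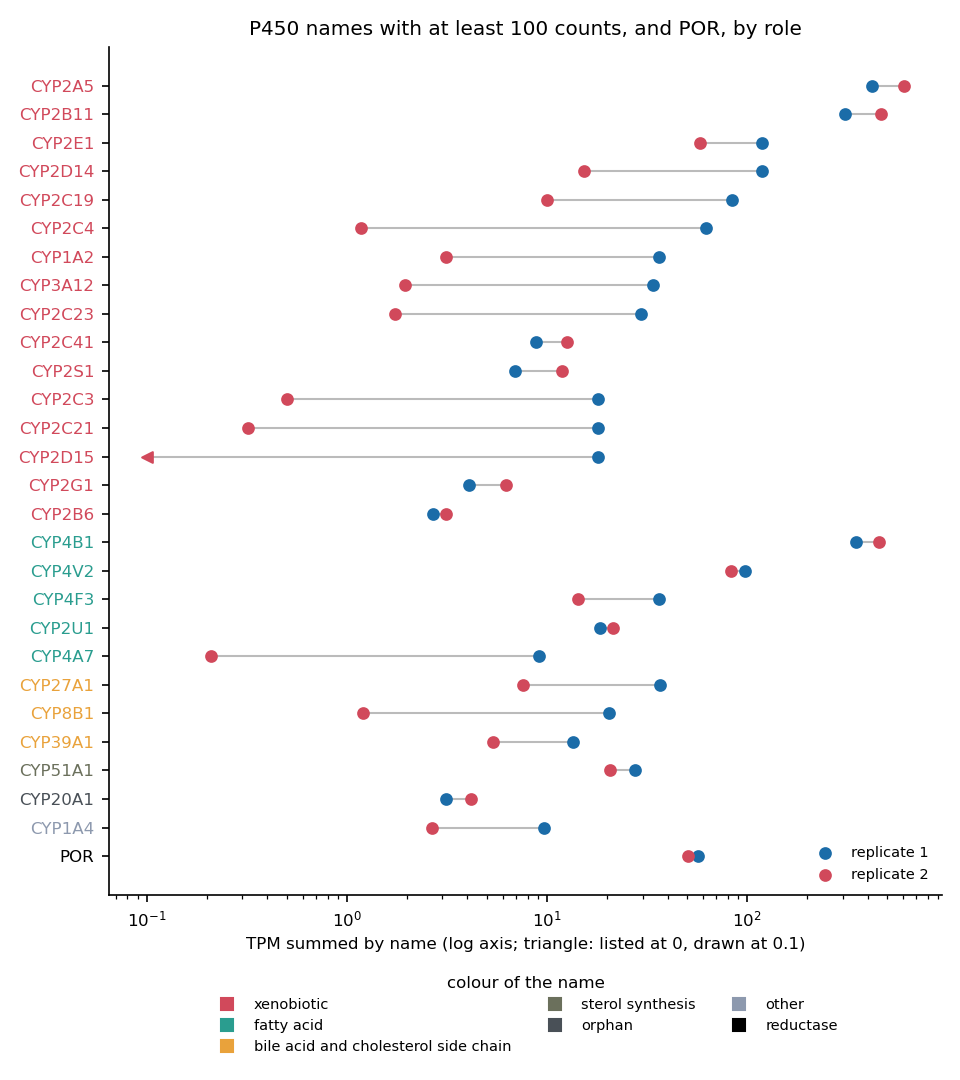
TPM of the P450 names with at least 100 expected counts in either library and of POR, on a log axis, with 1 point per library joined by a line for each name, a triangle at 0.1 for a value of 0, and the colour of each name giving its role. CYP2B11, the lowest of the 3 abundant names by mean TPM, lies at 310 and 464 TPM, while CYP2D15 is at 18.1 TPM in replicate 1 and at 0 in replicate 2.

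Differences between the libraries were taken from counts summed by name, scaled by TMM (trimmed mean of M-values), as the log2 ratio of CPM + 1 (counts scaled to the library total) of replicate 2 over replicate 1. The median over all tested names was removed, and names with a mean of at least 1 CPM were tested. The pseudocount of 1 CPM understates the change of low names. A ratio given without a logarithm is of TMM-scaled counts without the pseudocount, after removal of the same median. TPM is a share of a library and carries no TMM scaling, so its differences need not match those ratios.

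Of the 34 P450 names tested, 19 (55.9%) were over 2-fold lower in replicate 2, 15 lay within 2-fold and 0 passed 2-fold upward. With summed TPM in place of counts, 41 P450 names were tested, 23 were over 2-fold lower and 1, CYP2F2, was over 2-fold higher. Over all 11290 names tested by counts, the shares were 5.16% downward and 0.0266% upward. The shares over all names by summed TPM are not given here. The median log2 ratio was -1.44 over the tested P450 names, beside 0 over all names, whose quartiles were -0.17 and 0.13. It was -0.64 when only names averaging 10 CPM or more were tested and -0.52 with no filter. The 19 lower names held 686 TPM of replicate 1 and 120 of replicate 2, which is 34.3% and 6.48% of the P450 sum. The 15 others held 1277 and 1704 TPM.

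The filter on low values bears on that count and median. Of the tested names, 9 reached 1 CPM in replicate 1 only, and these 9 had to be lower. Of the 25 that reached it in both libraries, 10 were over 2-fold lower, or 40%. No P450 name reached it in replicate 2 only. Among names with a mean of at least 10 CPM, 9 of 20 P450 names were over 2-fold lower, beside 4.54% of all 7556 such names. The 13 names that were not tested were all low in both libraries.

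**Figure D2:**
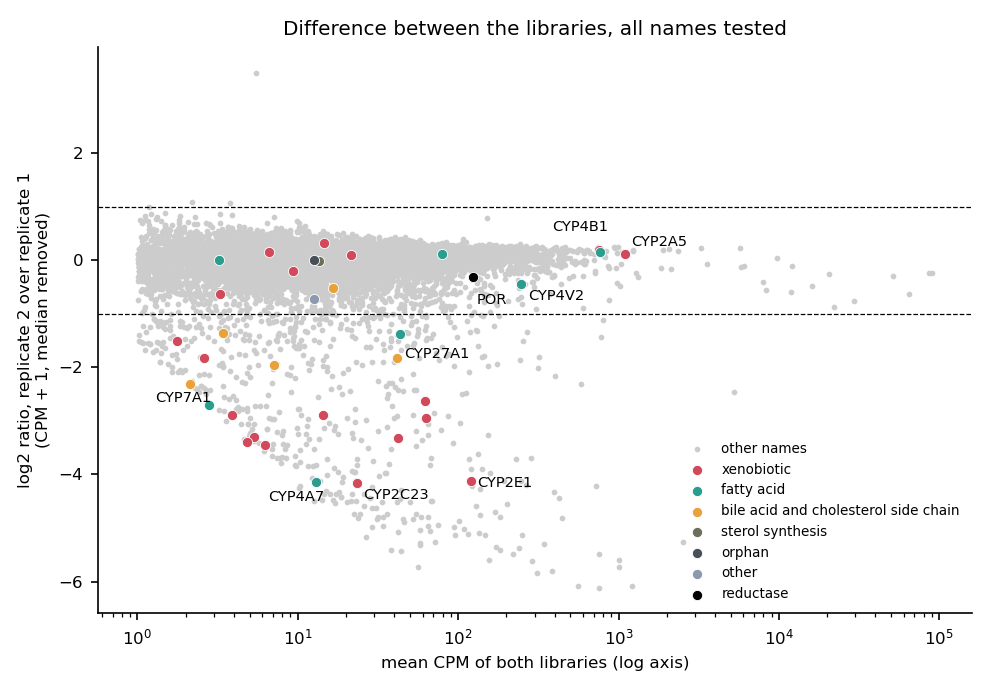
Log2 ratio of replicate 2 over replicate 1 (CPM + 1, TMM-scaled, median of all tested names removed) against the mean CPM of both libraries, on a log axis, with grey points for all tested names and colours for P450 names by role and for POR. The 19 P450 names below the dashed line at 2-fold include CYP2E1 and CYP2C23, and no P450 name lies above the upper one.

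The 28 names of the foreign-chemical P450s (families 1 to 3 without CYP2R1, CYP2U1 and the bird name CYP1A4) held most of the P450 TPM, 1347 in replicate 1 and 1223 in replicate 2. Their part of the P450 sum was 67.4% and 66.3%. Of 19 that passed the filter, 12 were over 2-fold lower in replicate 2, beside 5.16% of all names tested, and 7 lay within 2-fold. The median log2 ratio of the 19 was -2.64. Of the 12, 6 reached 1 CPM in replicate 1 only and so had to be lower, which also bears on that median. Of the 13 that reached it in both libraries, 6 were over 2-fold lower, with a median log2 ratio of -0.64. The ratio of their summed counts differed much less, at 0.838 (95% interval 0.826 to 0.849), because the abundant names are among the 7.

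CYP2A5, a coumarin-oxidising mouse form of subfamily 2A, was the highest P450 name, at 420 and 608 TPM in replicates 1 and 2. Its 17969 and 23263 counts gave a ratio of 1.08 (95% interval 1.059 to 1.101) and a log2 ratio of 0.11. CYP2B11, a dog form of the drug-oxidising subfamily 2B, was at 310 and 464 TPM, with a ratio of 1.15 (1.12 to 1.17) and a log2 ratio of 0.20. Both names were thus within 2-fold between the libraries.

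Other names of this role that did not differ by 2-fold were much lower in level. CYP2S1, an epithelial form found outside the liver in other mammals, was at 6.90 and 11.9 TPM, with a log2 ratio of 0.33, the highest of all tested P450 names. CYP2C41, a dog form of subfamily 2C, was at 8.85 and 12.6 TPM, with a log2 ratio of 0.09. CYP2G1, known from olfactory mucosa, was at 4.07 and 6.24 TPM, with a log2 ratio of 0.16. Replicate 2 was the higher library for all 3 by these values. The 95% interval of the ratio included 1 for CYP2C41 (0.926 to 1.23) and CYP2G1 (0.875 to 1.47), but not for CYP2S1 (1.07 to 1.52). CYP2B6, a human drug-oxidising form, was at 2.69 and 3.14 TPM, with 171 and 176 counts and a log2 ratio of -0.20.

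Of the lower names, CYP2E1, which oxidises ethanol and other small molecules, had the most counts in replicate 1. It had 3887 counts in replicate 1 and 247 in replicate 2, a ratio of 0.0529 (95% interval 0.0464 to 0.0603) and a log2 ratio of -4.13. Its summed TPM differed less, at 118 and 58.3, as its single assembled genes show. CYP1A2, a hepatocyte enzyme that oxidises caffeine and aromatic amines, was at 36.1 and 3.14 TPM, with a log2 ratio of -3.33. CYP3A12, a dog form of the subfamily that oxidises the widest range of drugs, was at 33.9 and 1.96 TPM, with a log2 ratio of -2.89.

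Subfamily 2C showed both patterns. CYP2C19, a drug-oxidising form, was at 84.3 and 10.03 TPM, with a log2 ratio of -2.94. CYP2C23, an arachidonic acid epoxygenase, was at 29.4 and 1.74 TPM, with a log2 ratio of -4.16. CYP2C4, a rabbit form, was at 62.0 and 1.18 TPM from 178 and 3 counts, a ratio of 0.0141 (0.00287 to 0.0417). CYP2C3, another rabbit form, had 130 and 3 counts, a ratio of 0.0193 (0.00392 to 0.0575). CYP2C21, a dog form, had 208 and 4 counts. All 10 names of the subfamily had sums of 241 and 31.0 TPM, a ratio of 0.182 (0.168 to 0.197). CYP2C41 was the only one of its tested names within 2-fold. However, CYP2C4, CYP2C3, CYP2C21 and CYP2C5 reached 1 CPM in replicate 1 only and so had to be lower. The tested names that reached it in both libraries were CYP2C19, CYP2C23 and CYP2C41.

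Subfamily 2D, which oxidises basic drugs, was lower as well. CYP2D14, a cattle form, was at 119 and 15.4 TPM, with a log2 ratio of -2.64. CYP2D15, a dog form, had 165 counts in replicate 1 and 0 in replicate 2, which makes it at least 65.9-fold lower against a floor of 3 counts in that library. The floor leaves out the counting error of the other library, and the 95% interval of this ratio reaches 0.0189. CYP2D15 reached 1 CPM in replicate 1 only and so had to be lower. The 4 names of subfamily 2D summed to 139 and 19.3 TPM. Subfamilies 1A and 3A summed to 45.7 and 5.79 TPM and to 36.5 and 5.08 TPM. By contrast, subfamily 2A summed to 447 and 610 TPM and 2B to 312 and 468 TPM, both higher in replicate 2 on this scale.

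**Figure D3:**
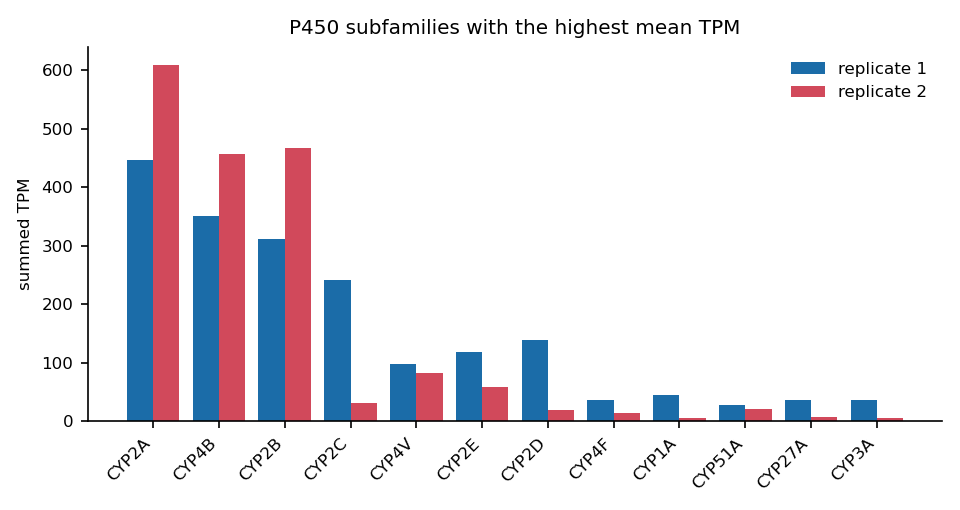
TPM summed over each of the P450 subfamilies with the highest mean TPM, in replicate 1 and replicate 2, 1 bar per library, from 0. The lower subfamilies are not drawn. Subfamilies 2A, 4B and 2B are the tallest in both libraries and taller in replicate 2, whereas 2C stands at 241 and 31.0 TPM.

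The 9 names of fatty acid P450s (family 4 and CYP2U1) gave sums of 535 and 578 TPM, or 26.7% and 31.3% of the P450 sum. Of 7 tested, 3 were over 2-fold lower, beside 5.16% of all names tested, and 4 lay within 2-fold. The median log2 ratio of the 7 was -0.45. Of those 3, CYP4A7 and CYP4A6 reached 1 CPM in replicate 1 only and so had to be lower. Of the 5 that reached it in both libraries, 1 was over 2-fold lower, and their median log2 ratio was 0.004. CYP4B1, a form abundant in lung of other mammals, made up most of the sum, at 350 and 457 TPM, with a ratio of 1.11 (1.08 to 1.13) and a log2 ratio of 0.15. CYP2U1, a long-chain fatty acid hydroxylase, was at 18.3 and 21.4 TPM, with a log2 ratio of 0.12. CYP4V2, a fatty acid hydroxylase known from the eye and liver, was at 98.0 and 83.2 TPM, with a log2 ratio of -0.45.

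The 3 lower names of this role were CYP4F3, CYP4A7 and CYP4A6. CYP4F3, which inactivates leukotriene B4, was at 36.2 and 14.3 TPM, with a log2 ratio of -1.38. CYP4A7, a rabbit fatty acid omega-hydroxylase, had 436 and 10 counts, a ratio of 0.0191 (0.00911 to 0.0355). CYP4A6, its relative, had 95.02 and 0 counts, at least 38.0-fold lower against the floor of 3 counts, while the 95% interval of the ratio reaches 0.0330. The 3 names of subfamily 4A together held 29.7 and 0.21 TPM, while subfamily 4B stood above 350 TPM in both.

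The 6 names of cholesterol and bile acid P450s summed to 74.0 and 15.1 TPM, or 3.70% and 0.82% of the P450 sum. In replicate 2, 4 of the 5 tested were over 2-fold lower, beside 5.16% of all names tested. The ratio of summed counts was 0.329 (0.302 to 0.359). CYP27A1, a mitochondrial enzyme that oxidises the cholesterol side chain, was at 36.6 and 7.56 TPM, with a log2 ratio of -1.83. CYP8B1, which directs bile acid synthesis to cholic acid, was at 20.5 and 1.21 TPM, with a log2 ratio of -1.96. CYP39A1, an oxysterol hydroxylase, was at 13.5 and 5.35 TPM from 338 and 276 counts, with a log2 ratio of -0.52, and was the tested name of this role within 2-fold. With summed TPM in place of counts its log2 ratio was -1.52, over 2-fold lower.

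CYP7A1, the rate-limiting enzyme of the classic bile acid pathway, was low in both libraries. It had 72 counts in replicate 1 and 1 in replicate 2, at 1.14 and 0.02 TPM, a ratio of 0.0116 (0.000289 to 0.0666), and it passed the filter through replicate 1 only. CYP46A1, the cholesterol hydroxylase best known from brain, had 92 and 30 counts, with a log2 ratio of -1.37. CYP7B1, an oxysterol hydroxylase, had 10 and 8 counts and was not tested.

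The tested P450s outside these roles lay within 2-fold by counts. CYP51A1, the lanosterol demethylase of cholesterol synthesis that all mammalian cells can use, was at 27.7 and 20.7 TPM from 232 and 275 counts, with a log2 ratio of -0.01. CYP20A1, whose substrate is not established, was at 3.11 and 4.18 TPM, with a log2 ratio of 0.00. CYP1A4, a name from a chicken match, was at 9.64 and 2.65 TPM from 273 and 189 counts, with a log2 ratio of -0.73. By summed TPM its log2 ratio was -1.88, over 2-fold lower. CYP2R1, a vitamin D hydroxylase, had 9 and 2 counts and was not tested.

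The 20 P450 names under 100 counts in both libraries summed to 87.1 and 28.0 TPM, and 2 of them, CYP2C55 and CYP3A11, were at 0 in both. In replicate 1 the highest was CYP2A13, a respiratory form in humans, at 27.5 TPM there and 1.14 TPM in replicate 2. Most of its TPM in replicate 1 came from an assembled gene of 336 bases, at 27.2 and 0.64 TPM from 71.5 and 1.5 counts. The longer CYP2A13 assembled gene, of 1159 bases, had 8 and 10 counts, a ratio of 1.04 (0.370 to 3.04). In replicate 2 the highest was CYP2F2, a mouse form of lung club cells, at 5.33 TPM there and at 0 in replicate 1. It had 0 and 17.6 counts, at least 4.89-fold higher in replicate 2 against the floor of 3 counts, while the 95% interval of the ratio starts at 3.67. CYP2F1, its human relative, had 12 and 13 counts. The whole of subfamily 2F had 12 and 30.6 counts, a ratio of 2.13 (1.08 to 4.61), and neither name reached the mean of 1 CPM. The club cell marker SCGB1A1 stood at 1 and 24 counts in the same libraries, and its part in the difference was not tested.

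Many P450 names cover several assembled genes, and these did not always move together. Of the 47 names, 29 had 1 assembled gene and 18 had more. The 82 assembled genes were 208 to 3795 bases long, with a median of 610.5, and 38 were shorter than 500 bases. Taken singly, 24 of 42 tested P450 assembled genes were over 2-fold lower, beside 6.81% of all 22025 assembled genes tested. Among the 34 with at least 100 summed counts, 9 were over 16-fold lower, 8 were 2-fold to 16-fold lower, 17 lay within 2-fold and 0 were over 2-fold higher. The share of all assembled genes at this filter and these thresholds is not given here, so this split has no background beside it.

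CYP2E1 showed the widest contrast within a name. An assembled gene of 2024 bases with a dog match had 3810 counts in replicate 1 and 101 in replicate 2, at 84.5 and 2.53 TPM. Another of 839 bases with a mouse match had 69.4 and 122 counts, at 33.4 and 54.0 TPM. Their ratios were 0.0221 (0.0180 to 0.0269) and 1.47 (1.09 to 2.01), so 1 was much lower in replicate 2 and the other was not. One more, of 887 bases and also with a mouse match, had 8 and 23.6 counts, a ratio of 2.46 (1.09 to 6.44). The shorter gene with few counts carried most of the TPM of the name in replicate 2, which is why the name's TPM and counts differ in their ratio.

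CYP4B1 and CYP4V2 showed such contrasts in the other proportion, with the abundant assembled gene similar in both libraries. The CYP4B1 assembled gene of 3599 bases, with a rat match, had 12340 and 16524 counts, a ratio of 1.12 (1.09 to 1.14). Another CYP4B1 assembled gene of 558 bases, with a human match, had 75.9 and 0 counts, at least 30.3-fold lower against the floor. One of 491 bases had 32.0 and 0 counts, at least 12.8-fold lower against the floor. The 95% intervals of these 2 ratios reach 0.0415 and 0.102. The CYP4V2 assembled gene of 3742 bases had 4802 and 4300 counts, and its second, of 1132 bases, had 106 and 1 counts, a ratio of 0.00785 (0.000197 to 0.0448). POR had a comparable pair, with 2312 and 2245 counts for the one of 2634 bases and 28.0 and 0 counts for one of 373 bases.

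**Figure D4:**
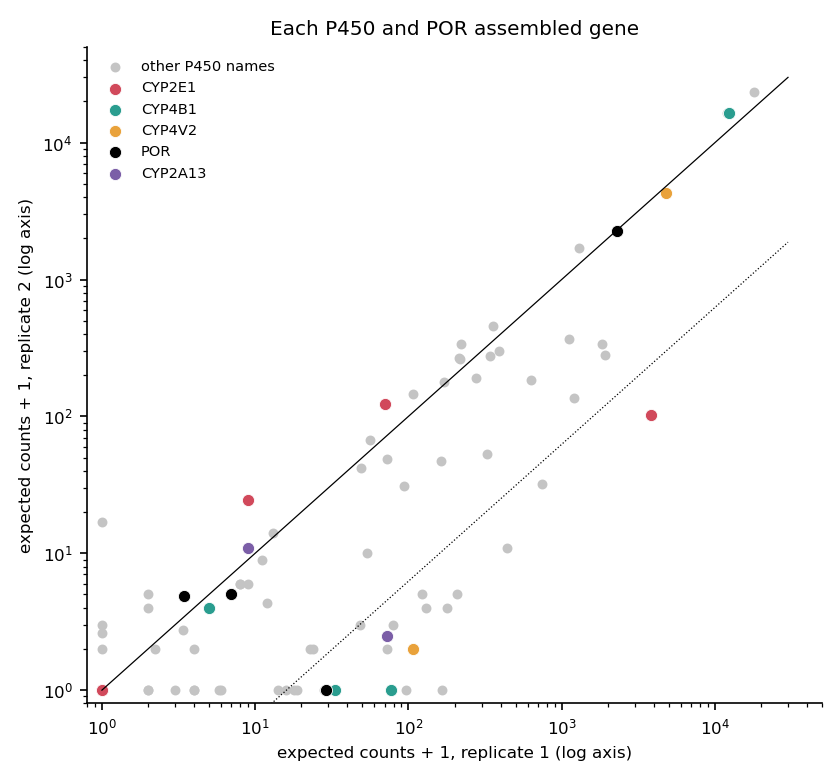
Expected counts + 1 of each P450 assembled gene in replicate 1 and replicate 2, on log axes, with lines of equal counts and of 16-fold lower counts in replicate 2. The CYP2E1 assembled gene with 3810 and 101 counts lies below the 16-fold line, and the CYP2E1 assembled gene with 69.4 and 122 counts lies above the line of equal counts.

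Names are best protein matches, not bat gene assignments. The matches came from 11 species, led by human with 30 assembled genes, mouse with 15 and dog with 13, and 18 of the 47 names occur as symbols among the RefSeq genes of this species (assembly ASM189008v1). In 7 clusters of the assembly, 2 or more P450 names shared a cluster, for 16 names in all. CYP2E1, CYP2C19, CYP2C21 and CYP2C18 shared one, and CYP2A5 and CYP2A13 another. Reads from closely similar copies may be divided between such names. Because CYP2E1 shared a cluster with subfamily 2C names, and CYP2B6 with CYP2G1 and CYP4A6 with CYP4F3, this holds for subfamily sums too.

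Of 13 electron transfer and heme partners, all 13 were found and passed the filter. Of these, 2 lay beyond 2-fold lower in replicate 2, beside 5.16% of all names tested, and 0 beyond 2-fold higher. The median log2 ratio of the 13 was -0.29. Cytochrome b5 (CYB5A), which passes electrons to some P450s, was at 242 and 204 TPM, with a log2 ratio of -0.66. ALAS1, which starts heme synthesis, was at 102 and 114 TPM, with a log2 ratio of 0.11. CYB5R3, the cytochrome b5 reductase, was at 77.4 and 79.3 TPM, and BLVRB, a reductase of heme breakdown, at 83.6 and 63.4 TPM. The 2 lower ones were FDX1, the ferredoxin of mitochondrial P450s such as CYP27A1, at 22.8 and 6.29 TPM with a log2 ratio of -2.26, and the heme oxygenase HMOX1, at 9.86 and 0.72 TPM with a log2 ratio of -2.15. HMOX1 reached 1 CPM in replicate 1 only and so had to be lower. Of the 12 partners that reached it in both libraries, 1, FDX1, was over 2-fold lower.

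Nuclear regulators of P450 genes included several that were lower in replicate 2, as the hepatocyte markers were. Of 20 listed, 18 were found and 14 tested. In replicate 2, 7 of these were over 2-fold lower and none passed 2-fold upward, with a median log2 ratio of -0.97, beside 5.16% of all names lower. Of these 7, 6 reached 1 CPM in replicate 1 only and so had to be lower, which also bears on that median. Of the 8 that reached it in both libraries, 1, NR1H3, was over 2-fold lower. The median log2 ratio of these 8 was -0.14. The 4 highest in level were CEBPB at 51.9 and 58.6 TPM, FOXA1 at 31.4 and 38.0 TPM, NFE2L2 at 27.9 and 39.1 TPM, and NR1I3 at 28.2 and 0 TPM. NR1I3 is CAR, the drug sensor that controls CYP2B genes in liver. Its 121 counts in replicate 1 against 0 make it at least 48.4-fold lower in replicate 2 against the floor, and the 95% interval of the ratio reaches 0.0258.

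The other lower regulators included several nuclear receptors. HNF4A, a hepatocyte transcription factor that acts on many P450 genes, was at 16.9 and 0.71 TPM, with a log2 ratio of -4.01. NR1I2, or PXR, the drug sensor that controls CYP3A genes, had 103 and 16 counts, with a log2 ratio of -1.97. NR5A2, NR1H3, PPARA and NR1H4 had log2 ratios of -2.75, -1.49, -1.42 and -1.34. AHR, the sensor that controls CYP1A genes, was at 4.84 and 7.42 TPM with a log2 ratio of -0.26, and its partner ARNT had a log2 ratio of -0.06.

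**Figure D5:**
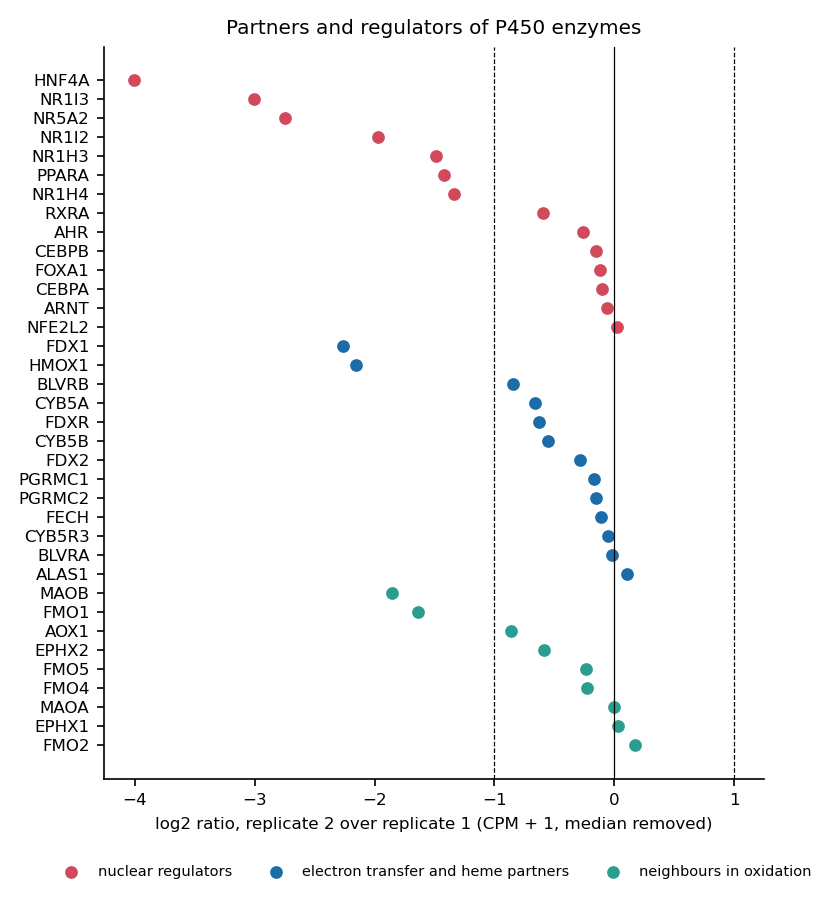
Log2 ratio of replicate 2 over replicate 1 (CPM + 1, median removed) for the tested nuclear regulators, electron transfer and heme partners, and neighbouring oxidising enzymes, 1 point per gene, with dashed lines at 2-fold. HNF4A lies lowest at -4.01, and no gene lies beyond 2-fold higher.

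Oxidising enzymes that are not P450s were compared as neighbours. Of 10 listed, 9 were found and tested. Of these, 2 were over 2-fold lower, beside 5.16% of all names tested, and 0 higher, with a median log2 ratio of -0.24. The epoxide hydrolase EPHX1, which acts on P450 products, was at 193 and 227 TPM, with a log2 ratio of 0.03. FMO2, the flavin monooxygenase best known from lung, was at 71.5 and 112 TPM, with a log2 ratio of 0.17. MAOA was at 40.1 and 46.5 TPM and FMO5 at 29.4 and 19.8 TPM. The 2 lower ones were MAOB, a monoamine oxidase, with a log2 ratio of -1.86, and FMO1, with a log2 ratio of -1.64. TBXAS1, the thromboxane synthase, has the P450 fold without a CYP name and stood at 3.36 and 3.52 TPM.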

How the data were processed

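Each library has 1 deposited table of the same 55378 Trinity-assembled genes, each with its best Swiss-Prot match. Per the file headers, 1 value column holds counts; they have decimals, so they are the authors' expected counts. A second deposited column was read as TPM from its sum; its header gives no unit. Per the submitters' processing notes, reads of both libraries went through cutadapt 1.9, and mm10 is listed as a build for replicate 1 only; assembler version and quantifier are not given in the sources used here.

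Values were summed by upper-cased name. Expected counts were rounded and TMM-scaled on all assembled genes with edgeR 4.0.16 (R 4.3.3), with factors of 0.9096 and 1.0993, and the median removed from log2 ratios was -0.014. Intervals of ratios are Clopper-Pearson 95% intervals. The floor of 3 counts was 0.16 CPM. Sums and intervals were computed with pandas 2.3.3 and scipy 1.17.1 in Python 3.11.15, and the calls were tested on simulated data.

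The rule for named genes took every P450 name with at least 100 expected counts in either library, POR, the 4 highest members of each partner list by mean TPM, and assembled genes that differ over 16-fold within a name; zeros were set to the floor and assembled genes with at least 15 counts compared. Any other gene in the text was chosen with its values in view. The members and lists were chosen with earlier results of these data known. Alternatives were a pseudocount of 0.1, other filters, size factors from DESeq2 1.42.0 (0.9143 and 1.0937), scaling by library size, no centring, summed TPM or single assembled genes in place of counts by name, leaving out the highest name or a library, and, added after seeing the data, assembled genes of at least 500 bases.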

Additional observations from a re-analysis of the deposited data

How the results depend on the processing

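The count of P450 names over 2-fold lower in replicate 2 stayed at 19 of 34 with other scaling, no centring or a pseudocount of 0.1. It was 9 of 20 at a mean of at least 10 CPM, 20 of 45 with no filter and 23 of 41 by summed TPM. Over single assembled genes it was 24 of 42, and over assembled genes of at least 500 bases 16 of 31. The median log2 ratio of -1.441 became -1.845 with a pseudocount of 0.1, -0.5196 with no filter, -0.6373 at a mean of at least 10 CPM and -1.746 over single assembled genes, always below 0. The P450 share of 0.1929% of TPM became 0.1413% without the highest P450 name, 0.3502% by expected counts and 0.1775% over assembled genes of at least 500 bases, the last chosen after seeing the data. The foreign-chemical share of 66.84% of P450 TPM became 54.21% without the highest name and 63.89% by expected counts. Leaving out each replicate gave 0.185 to 0.201% and 66.3 to 67.4%. None of the 27 named P450 ratios changed sign past 2-fold under 5 settings. Summed TPM moved 15 of them by over 0.25, and took CYP1A4 from -0.73 to -1.876 and CYP39A1 from -0.52 to -1.524. The causes were not tested. No paired analysis was possible because both libraries belong to 1 group. Depth limits names under 3 counts in a library.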

Other observations

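Among the 82 P450 assembled genes, 7 had a count of 0 in both libraries, of which 5 had a mouse match, 1 a dog match and 1 a cattle match. A further 16 were above 0 in replicate 1 only and 4 in replicate 2 only. The same split over all assembled genes is not given here, so these counts are not read as particular to P450s. The Pfam P450 domain was listed for 80 of the 82.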
